A study of Homo sapiens with 9 samples.

Results

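Chaperones of the cytosol and mitochondria are the proteins that fold other proteins, hold them in usable form and hand them over for breakdown. Their genes were chosen by symbol: HSPA, HSPB, HSPD, HSPE, HSPH, HSP90A, DNAJ or BAG followed by a number or letter. Of the 26816 genes counted, 84 matched. From these, 4 pseudogenes, 5 antisense genes, 5 genes of the endoplasmic reticulum lumen (HSPA5, DNAJB9, DNAJB11, DNAJC3 and DNAJC10) and HSPBAP1 and HSPBP1 were left out, which gave 68 members. By role they were 14 genes of the HSP70 and HSP110 families, both cytosolic HSP90 genes, the mitochondrial chaperonin pair HSPD1 and HSPE1, 6 small heat shock proteins, 38 J-domain genes (4 of class A, 9 of class B and 25 of class C) and 6 BAG genes. The symbol rule also took in genes whose products sit elsewhere, such as the endoplasmic reticulum membrane J-proteins DNAJB12 and DNAJB14, and HSPB11, an intraflagellar transport protein now named IFT25.

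The cells were OCI-Ly1, a human cell line grown from a diffuse large B-cell lymphoma. LSD1, encoded by KDM1A, is a histone demethylase that was depleted with short hairpin RNAs (shRNAs) to see how transcription changes. A total of 9 libraries of polyadenylated RNA were sequenced, 3 each from cells with the LSD1 shRNA sh68, cells with the LSD1 shRNA sh72, and cells with a non-targeting shRNA (shSCR). All 3 groups carried a pLKO1 vector and had been selected with puromycin, and the labels call the replicates biological triplicates of this 1 cell line. The count table names the hairpins sh68 and sh72 and the sample titles number them, with no label tying name to number, so the table's names are used here. No label gives the time since transduction.

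The libraries held 29506767 to 35270849 counted reads each. KDM1A averaged 24.4 CPM (reads scaled to library size) with sh68 and 20.9 CPM with sh72, against 121.2 CPM with shSCR. All 6 LSD1 shRNA libraries were below all 3 control libraries. Taken as 1 group, they gave an exact two-sided permutation p of 0.0119, the lowest that 6 against 3 libraries allow. For each hairpin alone the same test gave 0.1, the lowest that 3 against 3 allow. Of 10 germinal-centre B-cell markers, 9 had at least 1 CPM in every library. LMO2 was the exception, with a highest value of 2.74 CPM. Their summed level was 5736 to 5881 CPM with sh68, 3845 to 4042 CPM with sh72, and 5567 to 5754 CPM with shSCR. Summed markers of T cells, monocytes and erythroid cells stayed at or below 1.87 CPM in every library, CD163 and HBA1 were not among the genes counted, and no marker that was counted was at 0 in every library. Markers of epithelium and stroma, mostly EPCAM, summed to 8.63 to 10.2 CPM with sh68, 17.1 to 18.6 CPM with sh72, and 15.5 to 18.4 CPM with shSCR. The part of the B-cell and EPCAM shifts in the chaperone results was not tested. In bulk RNA, fewer cells of a type and less RNA per cell cannot be told apart.

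HSP70 proteins grip short greasy stretches of unfolded chains and let go in a cycle driven by ATP. J-domain proteins bring clients to HSP70 and trigger ATP hydrolysis, while HSP110 and BAG proteins swap the spent nucleotide and reset the cycle. HSP90 acts later, on nearly folded clients, and in B-cell lymphoma BCL6 is a known client. HSPD1 (HSP60) and HSPE1 (HSP10) form the folding chamber of mitochondria, and small heat shock proteins hold unfolded chains without ATP. The transcription factor HSF1 switches on many of these genes under stress by binding heat shock elements, which are inverted repeats of GAA.

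The start regions that carry such repeats were read from RefSeq on GRCh38.p14, which has a promoter window, 250 bases before to 50 after the start, for 60 of the 68 members. Searched on both strands, the repeat of 3 units, GAA-NN-TTC-NN-GAA or TTC-NN-GAA-NN-TTC (N is any base, hyphens only part the units), was in 4 of these 60 windows (6.67%) and in 133 of all 27305 windows (0.487%). The repeat of 2 units, GAA-NN-TTC or TTC-NN-GAA, which lies inside every 3-unit repeat, was in 13 of 60 windows (21.7%) and in 3738 of all windows (13.7%). A match describes letters, not binding. The 4 genes with a 3-unit repeat are shown because they range from the highest chaperone transcripts of these cells to a gene with almost no reads. Capitals mark the 3-unit repeats, and each stretch runs 5′ to 3′ on the gene's own strand.
HSPA8, chr11:123062137-123062386, minus strand: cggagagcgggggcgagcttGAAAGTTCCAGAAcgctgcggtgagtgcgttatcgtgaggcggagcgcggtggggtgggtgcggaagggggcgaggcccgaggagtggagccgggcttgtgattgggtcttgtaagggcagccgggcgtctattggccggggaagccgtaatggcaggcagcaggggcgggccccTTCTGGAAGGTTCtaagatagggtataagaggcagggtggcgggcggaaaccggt
DNAJB6, chr7:157336854-157337003, plus strand: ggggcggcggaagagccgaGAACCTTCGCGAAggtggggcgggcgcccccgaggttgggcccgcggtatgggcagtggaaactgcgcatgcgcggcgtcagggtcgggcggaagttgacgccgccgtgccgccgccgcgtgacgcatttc
DNAJA1, chr9:33025268-33025291, plus strand: gccgggcgGAACTTTCCAGAAcgc
HSPA6, chr1:161524420-161524539, plus strand: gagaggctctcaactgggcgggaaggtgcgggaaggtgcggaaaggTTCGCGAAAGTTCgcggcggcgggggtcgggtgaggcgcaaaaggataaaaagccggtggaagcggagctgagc
HSPA8 had repeats beginning 230 and 55 bases before its start, DNAJB6 131 bases before and HSPA6 74 bases before. In DNAJA1 the repeat began 3 bases after the first base of the transcript. These 4 genes gave different readouts. HSPA8 and DNAJB6 were higher with sh72 than with shSCR, DNAJA1 was lower with both LSD1 shRNAs, and HSPA6 had 0 to 3 reads a library.

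A further stretch is shown because the genes on either side of it diverged in the readout. HSPD1 and HSPE1 stand head to head on chromosome 2, and the 104 bases below are all that separates their RefSeq starts. They hold no 3-unit repeat and are read in the direction of HSPE1.
HSPD1 to HSPE1, chr2:197500275-197500378, plus strand: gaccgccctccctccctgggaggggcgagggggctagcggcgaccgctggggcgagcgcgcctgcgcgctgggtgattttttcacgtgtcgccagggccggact

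In control cells the chaperone pool was led by a few genes. Divided by exon length, the level of HSP90AB1 was 482.9 CPM per kb and that of HSPA8 357.3 CPM per kb, followed by DNAJA1 at 198.6, HSP90AA1 at 134.5, HSPD1 at 114.8 and HSPA4 at 91.7 CPM per kb, against a median of 7.51 CPM per kb over the 60 members tested. The length takes in every annotated exon of a gene, merged over its transcripts, at 2980 bases for HSP90AB1 and 4849 bases for HSPA8. The ranks per kb depend on it. Without the length correction HSPA8 came first. HSPA8 and HSP90AB1 then held 35.5% of all chaperone reads in control cells and the top 10 members held 73.3%. The summed level of all 68 members was 7987 ± 85.7 CPM with sh68 and 9469 ± 326 CPM with sh72, against 8932 ± 221 CPM with shSCR (SD, n = 3 each). The range of the 3 libraries was 7905 to 8076 CPM with sh68, 9275 to 9846 CPM with sh72, and 8788 to 9186 CPM with shSCR, so the groups did not overlap.

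**Figure D1:**
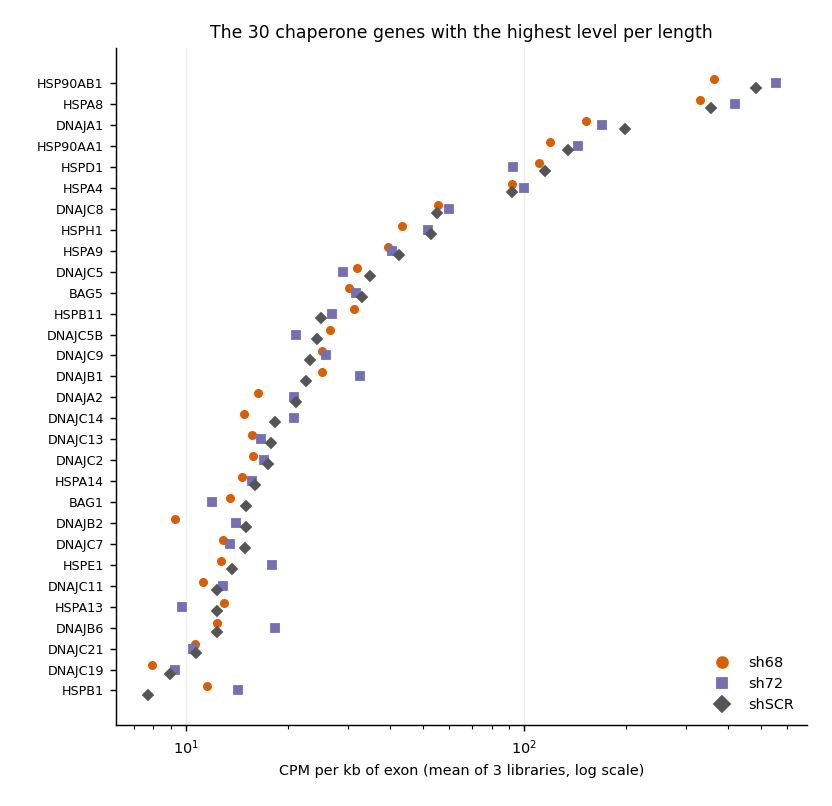
Mean level of the 30 members with the highest level per length, in CPM per kb of exon on a log axis, for sh68 (circles), sh72 (squares) and shSCR (diamonds). HSP90AB1 and HSPA8 lead in all 3 groups, and for HSP90AB1 the sh72 mean of 553.5 lies above and the sh68 mean of 364.8 below the shSCR mean of 482.9 CPM per kb.

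Each gene was tested with edgeR's quasi-likelihood test over all 15725 genes that passed a filter on low counts, and called at a Benjamini-Hochberg adjusted p below 0.05. All adjusted p values below come from that test, all fold changes are log2 values with their SE, and errors of CPM means are SDs over 3 libraries. Of the 68 members, 60 were tested. DNAJC5G passed the filter only through its sh72 libraries and HSPB7 through its sh68 libraries, the groups where they are highest, so their calls are within the counts but support nothing. With sh68 against shSCR, 16 members rose and 25 fell, against a background of 27.4% of all tested genes higher and 28.1% lower (55.5% in either direction). With sh72 against shSCR, 23 rose and 18 fell, against 24.7% higher and 26.3% lower (51.0%). On the mean of both hairpins 20 rose and 21 fell, against 24.9% and 27.5% (52.3%). The members' shares called were 26.7% and 41.7% with sh68, 38.3% and 30.0% with sh72, and 33.3% and 35.0% on the mean. Their median log2 fold change was -0.10 with sh68 and 0.05 with sh72, beside -0.01 for all tested genes in both. Their median absolute log2 fold change was 0.18 with sh68, 0.23 with sh72 and 0.19 on the mean. For all tested genes it was 0.25, 0.23 and 0.20. The median sizes of the members were thus no larger than those of all tested genes. In control cells 46 members had at least 10 CPM, and the part of level in these shares and sizes was not tested. Nearly all changes were small. Only 3 members with each hairpin moved by more than 1 on the log2 scale.

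The hairpins were also set directly against each other. Between sh72 and sh68, 28 members were higher with sh72 (46.7%) and 12 were lower (20.0%), while 27.2% of all tested genes were higher and 29.0% lower (56.2% in either direction). The median difference of the members was 0.12, beside -0.01 for all tested genes. In absolute size the median difference was 0.26 for the members and 0.26 for all tested genes. In CPM, all 3 sh72 libraries lay above all 3 sh68 libraries for 34 of the 60 tested members and below for 13, beside 29.6% and 31.1% of all tested genes. Among the 10 members with the highest level per length, 7 were higher and 2 lower with sh72 than with sh68. The comparisons with shSCR share the same 3 control libraries, so their agreement for a member is not independent. The shares of all tested genes given here and above also stand beside the counts by role below.

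**Figure D2:**
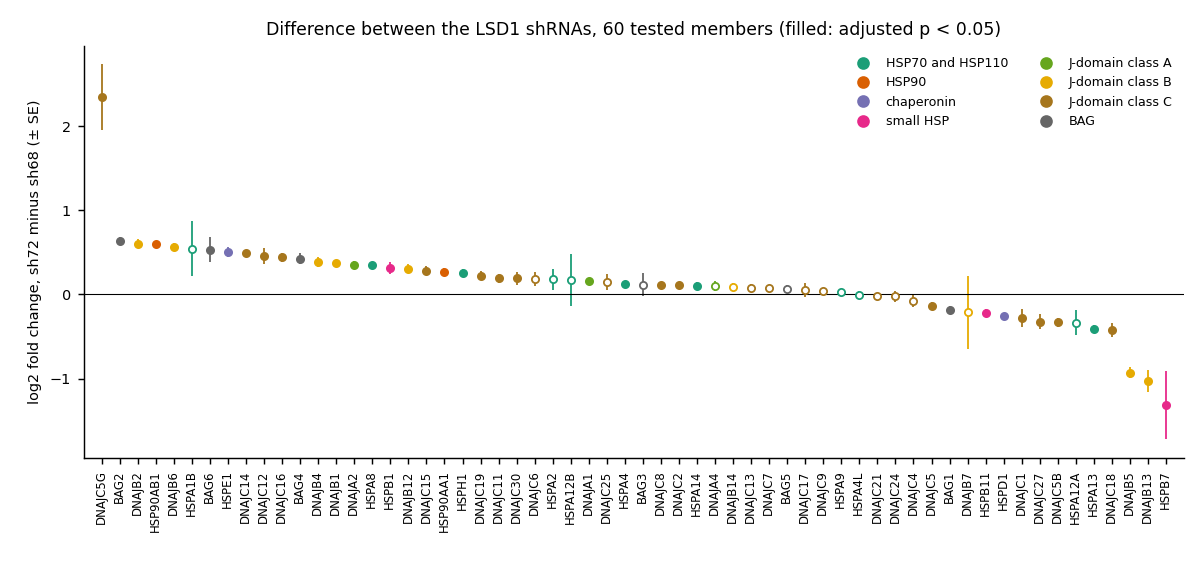
Log2 difference between the LSD1 shRNAs, sh72 minus sh68, with its SE, for the 60 tested members in falling order, coloured by role. Filled points passed the test, 28 above 0 and 12 below, and the ends are DNAJC5G at 2.35 and HSPB7 at -1.32, both genes of low count.

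The HSP90 gene with the highest level per length fell with sh68 and rose with sh72. HSP90AB1, the steadily expressed HSP90, had 1072, 1100 and 1088 CPM with sh68 and 1741, 1607 and 1600 CPM with sh72, against 1490, 1425 and 1403 CPM with shSCR. The sh68 libraries were below and the sh72 libraries above all controls, with log2 fold changes of -0.40 ± 0.04 (adjusted p = 4.57e-09) and 0.20 ± 0.04 (adjusted p = 0.000149). The difference, sh72 minus sh68, was 0.60 ± 0.04 (adjusted p = 3.66e-12). HSP90AA1, the stress-inducible HSP90, had 619.9, 621.9 and 637.7 CPM with sh68 and 806.6, 731.6 and 727.8 CPM with sh72, against 747.3, 675.8 and 693.9 CPM with shSCR. It fell with sh68 (-0.17 ± 0.04, adjusted p = 0.00152). With sh72 its value of 0.10 ± 0.04 missed the threshold (adjusted p = 0.0593), the sh72 and shSCR libraries overlapped, and this value passed in most alternative fits, among them without control replicate 1 (0.16, adjusted p = 0.0109). The difference between the hairpins was 0.27 ± 0.04 (adjusted p = 9.16e-06). The summed level of both HSP90 genes was 1713 ± 18.6 CPM with sh68 and 2405 ± 124 CPM with sh72, against 2145 ± 80.0 CPM with shSCR.

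Of the 14 HSP70 and HSP110 genes, 11 were tested. With sh68 2 rose and 4 fell, with sh72 4 rose and 2 fell, and 4 were higher and 1 lower with sh72 than with sh68. The sh68 counts became 1 rise and 2 falls without control replicate 1, sh68 replicate 2 or sh68 replicate 3, and 2 and 2 without sh68 replicate 1. The 2 falls with sh72 became 1 without control replicate 2, sh72 replicate 2 or sh72 replicate 3. HSPA8, the constitutive HSP70 (HSC70), had 1617, 1582 and 1607 CPM with sh68 and 2153, 1978 and 1990 CPM with sh72, against 1829, 1684 and 1685 CPM with shSCR. All sh72 libraries lay above, and all sh68 libraries below, the controls. HSPA8 rose by 0.24 ± 0.04 with sh72 (adjusted p = 3.10e-05), and its difference between the hairpins was 0.35 ± 0.04 (adjusted p = 9.21e-08). With sh68 it was at -0.11 ± 0.04 (adjusted p = 0.0207), a call that ended without control replicate 1 (-0.06, adjusted p = 0.261), sh68 replicate 2 (-0.09, 0.104) or sh68 replicate 3 (-0.11, 0.0705). The gene's exons hold 2 small nucleolar RNA genes, SNORD14C and SNORD14D, whose reads cannot be told apart from its own.

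HSPH1, an HSP110 that resets HSP70, had 369.2, 351.4 and 369.9 CPM with sh68 and 433.5, 430.9 and 439.6 CPM with sh72, against 482.2, 416.9 and 433.9 CPM with shSCR. It was lower with sh68, at -0.29 ± 0.04 (adjusted p = 4.70e-06), while its sh72 libraries lay inside the control range (-0.03 ± 0.04, adjusted p = 0.565). HSPA4, another HSP110, had 459.1, 479.7 and 480.0 CPM with sh68 and 523.0, 504.8 and 513.0 CPM with sh72, against 472.8, 471.4 and 473.7 CPM with shSCR. Its rise with sh72 was 0.12 ± 0.03 (adjusted p = 0.00542), and with sh68 its value was 0.00 ± 0.03 (adjusted p = 0.983). HSPA4L, also an HSP110, rose with both hairpins, by 0.28 ± 0.05 (adjusted p = 3.72e-05) with sh68 and 0.27 ± 0.05 (adjusted p = 7.23e-05) with sh72. It averaged 55.0 ± 1.15 CPM with sh68 and 54.6 ± 1.70 CPM with sh72, against 45.2 ± 2.60 CPM with shSCR.

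HSPA13, a membrane-bound HSP70 relative of the microsomal fraction, had 52.1, 54.8 and 55.6 CPM with sh68 and 38.7, 42.0 and 41.9 CPM with sh72, against 50.0, 51.9 and 53.0 CPM with shSCR. It fell with sh72, at -0.34 ± 0.05 (adjusted p = 4.11e-06), and was the 1 tested gene of its families that was lower with sh72 than with sh68 (-0.41 ± 0.05, adjusted p = 1.69e-07). HSPA9, the mitochondrial HSP70 (mortalin), was close to its control level, at -0.10 ± 0.04 (adjusted p = 0.0188) with sh68 and -0.07 ± 0.04 (adjusted p = 0.101) with sh72. The sh68 call of HSPA9 ended when any 1 sh68 library, control replicate 1 or control replicate 2 was left out (-0.08 to -0.10, adjusted p from 0.0582 to 0.0944), and its difference between the hairpins was 0.03 ± 0.04 (adjusted p = 0.495). HSPA14, a ribosome-associated HSP70, was at -0.13 ± 0.04 with sh68 (adjusted p = 0.00653). That call, and its difference of 0.10 ± 0.04 (adjusted p = 0.0299), ended without sh68 replicate 1 (-0.10, adjusted p = 0.0574, and 0.08, adjusted p = 0.121), and the difference also without sh72 replicate 2 (0.09, adjusted p = 0.0991). HSPA2, best known from the testis, rose with sh72 by 0.54 ± 0.13 (adjusted p = 0.00149). Its sh68 value was 0.36 ± 0.13 (adjusted p = 0.0250), a call that ended without control replicate 1 (0.29, 0.110), sh68 replicate 2 (0.32, 0.0798) or sh68 replicate 3 (0.30, 0.101).

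The classical heat-inducible HSP70 genes HSPA6, HSPA1A and HSPA1B, and their relative HSPA1L, were almost silent in the counts. HSPA6 had 13 reads over all 9 libraries, HSPA1A 3 and HSPA1L 6, too few to test. HSPA1B averaged 0.368 CPM with sh68 and 0.545 CPM with sh72, against 0.511 CPM with shSCR, and did not pass with either hairpin (adjusted p = 0.258 and 0.839). HSPA1A and HSPA1B have nearly the same sequence, so counting could leave out or split their reads. BAG6, whose gene stands on chromosome 6 near them, was also low, at 2.73 CPM with sh68 and 3.94 CPM with sh72, against 3.52 CPM with shSCR. DNAJA3, a mitochondrial J-protein, had 2 reads in all, and whether counting lowered these genes was not tested. The other untested members were DNAJC22, HSPB2, HSPB6 and HSPB9, with 9 to 68 reads in all.

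The chaperonin pair of mitochondria diverged. HSPD1 had 456.0, 477.8 and 473.5 CPM with sh68 and 402.9, 390.0 and 382.6 CPM with sh72, against 499.4, 473.8 and 489.0 CPM with shSCR. Every sh72 library was below every other library, and the fall with sh72 was -0.31 ± 0.04 (adjusted p = 1.21e-07). HSPE1 had 24.2, 25.3 and 25.6 CPM with sh68 and 38.4, 33.9 and 34.1 CPM with sh72, against 26.6, 26.7 and 27.6 CPM with shSCR. Here every sh72 library was above every other library, and the rise was 0.40 ± 0.06 (adjusted p = 3.50e-06). Between the hairpins HSPD1 differed by -0.26 ± 0.04 (adjusted p = 1.60e-06) and HSPE1 by 0.50 ± 0.06 (adjusted p = 6.62e-08), and neither passed with sh68 (adjusted p = 0.202 and 0.121). The pair share the 104 bases printed above as the whole space between their starts. In the GENCODE 29 annotation their exons overlap by 281 bases on opposite strands, and HSPE1 shares 192 bases with the readthrough gene HSPE1-MOB4. Since the strand setting of the counting is unknown, reads there cannot be assigned with certainty.

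**Figure D3:**
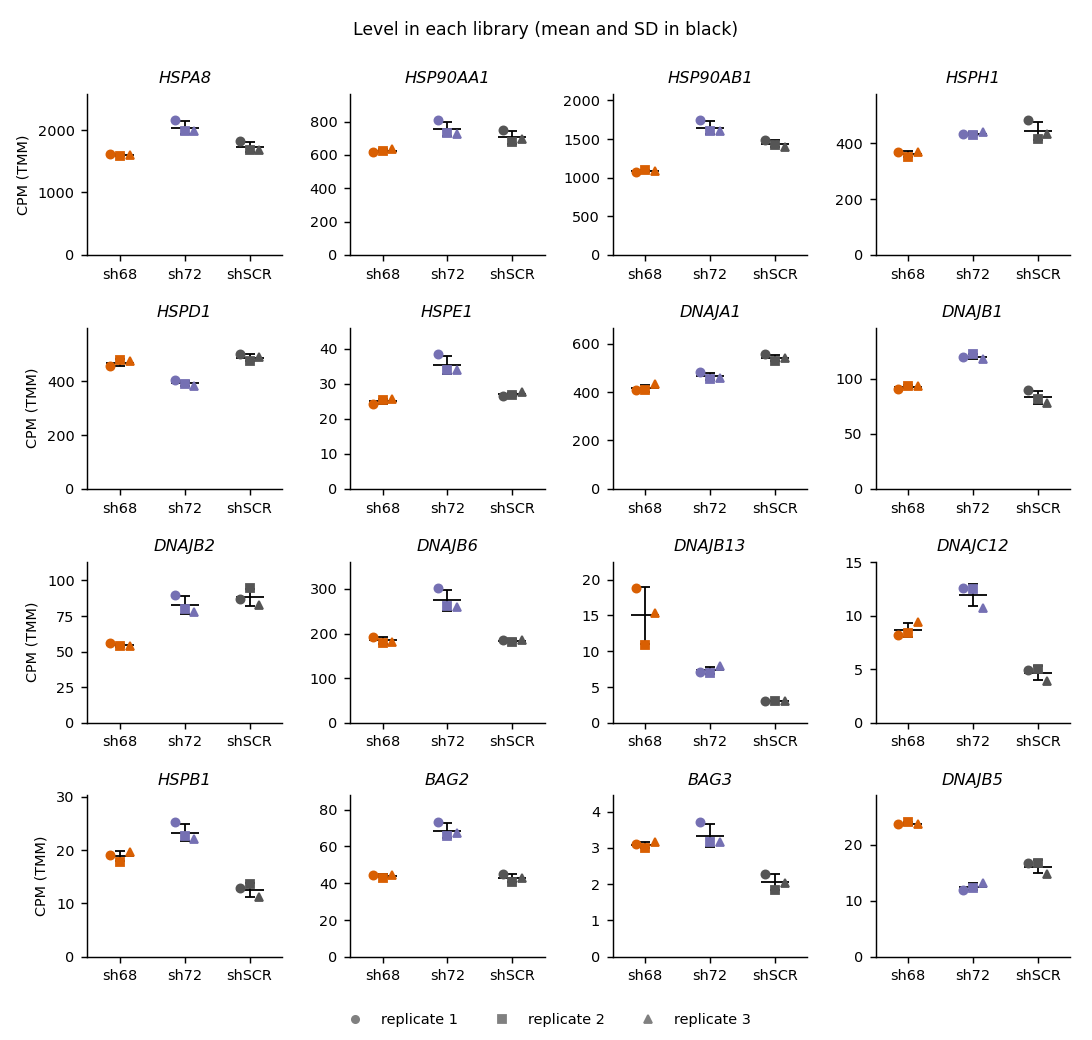
Level of 16 members in each library, in TMM-scaled CPM, with a linear axis from 0 for each gene. Coloured points are libraries (circle, square and triangle for replicates 1, 2 and 3) and black marks the mean and SD of sh68, sh72 and shSCR (n = 3 each). For HSP90AB1 the sh68 libraries sit near 1087 CPM and the sh72 libraries near 1649 CPM, on either side of shSCR at 1439 CPM, while for HSPB1 both LSD1 shRNAs sit above shSCR.

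Of the 6 members placed with the small heat shock proteins by symbol, 3 were tested. HSPB11 among them is the intraflagellar transport protein IFT25. All 3 were called higher with sh68, though the call of HSPB7 supports nothing, as given above. With sh72 1 was called higher, which became 2 without any 1 sh68 library or sh72 replicate 3. HSPB1 (HSP27), which holds unfolded chains for HSP70, had 19.1, 17.8 and 19.6 CPM with sh68 and 25.2, 22.7 and 22.0 CPM with sh72, against 13.0, 13.6 and 11.2 CPM with shSCR. All 6 LSD1 shRNA libraries were above all controls, with 0.58 ± 0.08 (adjusted p = 8.63e-07) with sh68 and 0.89 ± 0.08 (adjusted p = 8.33e-10) with sh72. The rise was larger with sh72, by 0.31 ± 0.07 (adjusted p = 0.000712). HSPB11 averaged 101.7 ± 5.32 CPM with sh68 and 87.3 ± 3.36 CPM with sh72, against 81.2 ± 0.72 CPM with shSCR. It rose with sh68 by 0.32 ± 0.04 (adjusted p = 1.22e-06), and its sh72 value of 0.10 ± 0.04 missed the threshold (adjusted p = 0.0550), though it passed in other fits, such as without sh72 replicate 3 (0.14, adjusted p = 0.0142). HSPB7, a small heat shock protein of muscle, averaged 0.656 CPM with sh68 and 0.265 CPM with sh72, against 0.191 CPM with shSCR. Its value was 1.73 ± 0.43 with sh68 and its difference between the hairpins -1.32 ± 0.40. HSPB7 reached the filter's CPM in all 3 sh68 libraries, 2 sh72 libraries and 0 control libraries, so these are descriptions, without p values.

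Class A J-proteins resemble bacterial DnaJ and are general partners of HSP70. Of 4, 3 were tested, with 1 rising and 2 falling with sh68, 1 rising and 1 falling with sh72, and 2 higher and 0 lower with sh72 than with sh68. DNAJA1, the most abundant, had 410.0, 406.7 and 433.3 CPM with sh68 and 481.2, 453.3 and 459.7 CPM with sh72, against 555.5, 529.7 and 541.1 CPM with shSCR. Both hairpins lay below the controls and sh68 lower than sh72, with -0.38 ± 0.04 with sh68 (adjusted p = 8.24e-09), -0.22 ± 0.04 with sh72 (adjusted p = 2.54e-05) and a difference of 0.16 ± 0.04 (adjusted p = 0.000954). DNAJA2 had 80.6, 84.0 and 83.5 CPM with sh68 and 108.0, 105.9 and 103.6 CPM with sh72, against 103.0, 110.8 and 106.5 CPM with shSCR. It fell with sh68, at -0.37 ± 0.04 (adjusted p = 5.08e-08), beside -0.01 ± 0.04 with sh72 (adjusted p = 0.822), and the difference was 0.36 ± 0.04 (adjusted p = 7.27e-08). DNAJA4 went the other way, at 26.8 ± 1.05 CPM with sh68 and 28.7 ± 1.01 CPM with sh72, against 19.3 ± 1.15 CPM with shSCR. It rose by 0.47 ± 0.06 (adjusted p = 4.84e-07) with sh68 and 0.57 ± 0.06 (adjusted p = 2.89e-08) with sh72, and the difference did not pass (0.10 ± 0.06, adjusted p = 0.151).

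All 9 class B J-proteins were tested. With sh68 4 rose and 2 fell, with sh72 5 rose and 2 fell, and 5 were higher and 2 lower with sh72 than with sh68. DNAJB1 (HSP40), the main inducible J-protein of the cytosol, had 91.0, 93.4 and 93.6 CPM with sh68 and 119.9, 121.9 and 117.5 CPM with sh72, against 89.4, 81.7 and 77.5 CPM with shSCR. It rose by 0.16 ± 0.05 with sh68 (adjusted p = 0.00470) and by 0.53 ± 0.05 with sh72 (adjusted p = 8.91e-10). DNAJB6, which keeps aggregation-prone chains apart, had 193.1, 179.7 and 181.9 CPM with sh68 and 301.2, 262.1 and 260.3 CPM with sh72, against 186.2, 181.1 and 185.6 CPM with shSCR. Its rise was 0.57 ± 0.05 with sh72 (adjusted p = 3.82e-10), and with sh68 its value was 0.00 ± 0.05 (adjusted p = 0.944). DNAJB4, a close relative of DNAJB1, averaged 24.7 ± 0.59 CPM with sh68 and 32.3 ± 2.14 CPM with sh72, against 19.1 ± 1.14 CPM with shSCR, and rose by 0.37 ± 0.06 and 0.76 ± 0.06 (adjusted p = 2.69e-05 and 4.69e-10). For all 3 genes the difference between the hairpins passed, at 0.37 ± 0.04 for DNAJB1 (adjusted p = 1.90e-07), 0.57 ± 0.05 for DNAJB6 (adjusted p = 2.95e-10) and 0.39 ± 0.06 for DNAJB4 (adjusted p = 7.08e-06).

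DNAJB2, which steers ubiquitinated clients to the proteasome, had 55.8, 53.7 and 53.8 CPM with sh68 and 90.1, 80.1 and 77.9 CPM with sh72, against 87.1, 94.5 and 83.1 CPM with shSCR. It fell with sh68 to 61.7% of its control level (-0.70 ± 0.05, adjusted p = 1.26e-10). With sh72 its value was -0.09 ± 0.05 (adjusted p = 0.156), which passed without sh72 replicate 1 (-0.16, adjusted p = 0.00766), and the difference was 0.60 ± 0.05 (adjusted p = 1.35e-09). DNAJB5 had 23.6, 24.0 and 23.7 CPM with sh68 and 12.0, 12.3 and 13.2 CPM with sh72, against 16.7, 16.8 and 14.8 CPM with shSCR. It rose with sh68 (0.56 ± 0.06, adjusted p = 9.24e-08) and fell with sh72 (-0.37 ± 0.07, adjusted p = 0.000105), a difference of -0.93 ± 0.07 (adjusted p = 2.55e-11). DNAJB14, which sits in the endoplasmic reticulum membrane, fell with both, at -0.39 ± 0.05 (adjusted p = 1.87e-07) with sh68 and -0.30 ± 0.05 (adjusted p = 8.65e-06) with sh72.

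DNAJB13, a J-protein of sperm tails and motile cilia, had the largest change with sh68 among members with more than 1 CPM in every library, while with sh72 DNAJC12 changed more. It had 18.8, 10.9 and 15.4 CPM with sh68 and 7.03, 7.01 and 7.91 CPM with sh72, against 3.03, 3.12 and 3.06 CPM with shSCR. The groups did not overlap, and the sh68 libraries spread more widely than the others. DNAJB13 was 4.87-fold higher with sh68 (2.28 ± 0.15, adjusted p = 6.96e-12) and 2.38-fold higher with sh72 (1.25 ± 0.17, adjusted p = 1.07e-06), and lower with sh72 than with sh68 (-1.03 ± 0.13, adjusted p = 3.22e-07). GENCODE 29 has an antisense gene over 799 bases of its exons, which is not among the genes counted.

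**Figure D4:**
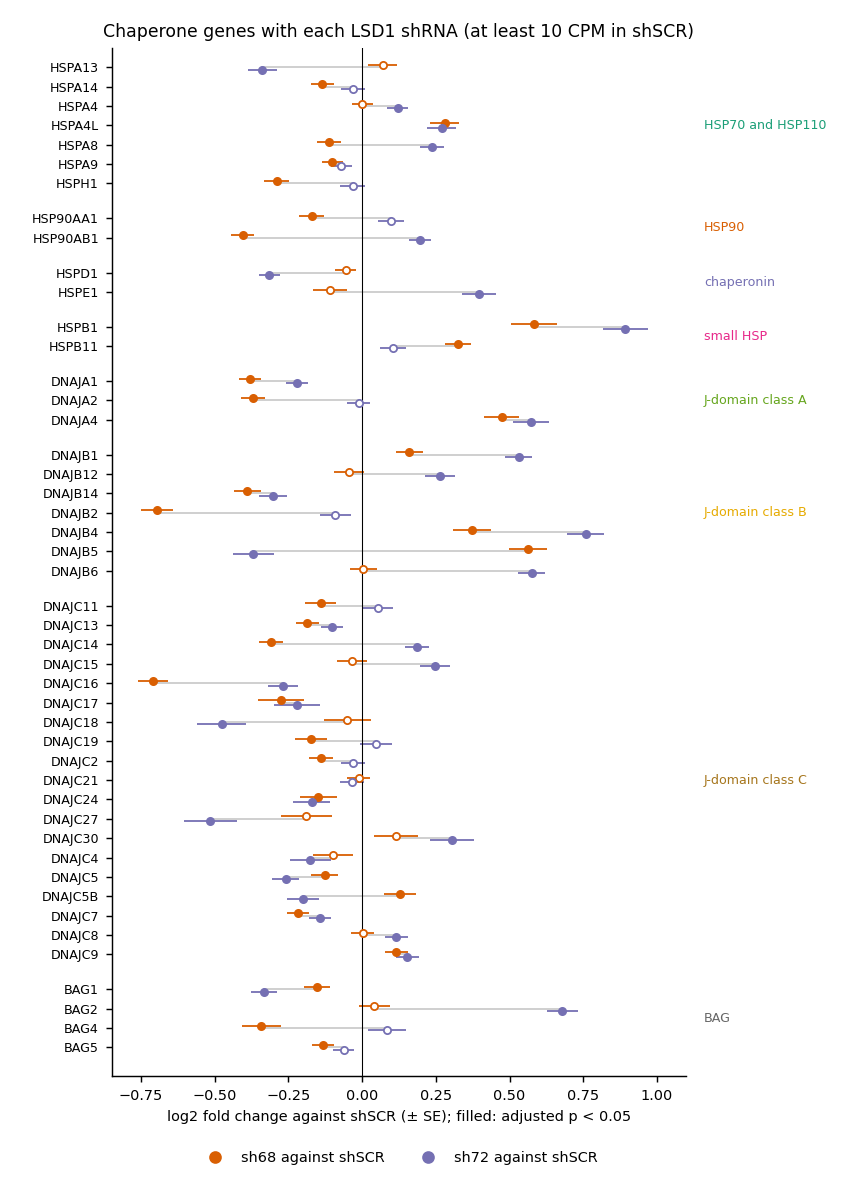
Log2 fold change against shSCR, with its SE, for sh68 and sh72 in the 46 members with at least 10 CPM in shSCR, grouped by role. Filled points passed the test. Many pairs of points are well apart, as for DNAJB5 with 0.56 with sh68 and -0.37 with sh72, while HSPA4L, DNAJA4 and DNAJC9 lie together to the right of 0.

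Class C J-proteins share the J domain and little else. Of 25, 24 were tested. With sh68 5 rose and 11 fell, with sh72 8 rose and 11 fell, and 10 were higher and 5 lower with sh72 than with sh68. The 5 rises with sh68 became 3 without control replicate 1 or sh68 replicate 3, the 11 falls became 7 without control replicate 2, and the 5 lower with sh72 became 3 without sh68 replicate 1. DNAJC12, a partner of HSP70 for aromatic amino acid hydroxylases, had 8.23, 8.35 and 9.40 CPM with sh68 and 12.5, 12.5 and 10.7 CPM with sh72, against 4.95, 5.06 and 3.86 CPM with shSCR. It was 1.88-fold higher with sh68 (0.91 ± 0.11, adjusted p = 1.94e-07) and 2.58-fold higher with sh72 (1.37 ± 0.11, adjusted p = 1.49e-10), with every LSD1 shRNA library above the controls. DNAJC16, of the endoplasmic reticulum membrane, had 23.0, 23.2 and 23.8 CPM with sh68 and 30.4, 32.0 and 32.7 CPM with sh72, against 38.2, 38.0 and 38.2 CPM with shSCR. It fell, at -0.71 ± 0.05 (adjusted p = 4.12e-11) with sh68 and -0.27 ± 0.05 (adjusted p = 9.81e-05) with sh72, a difference of 0.44 ± 0.05 (adjusted p = 1.35e-07).

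DNAJC25 fell with both hairpins, with 6.57 ± 0.56 CPM with sh68 and 7.29 ± 0.69 CPM with sh72, against 9.57 ± 0.40 CPM with shSCR (-0.54 ± 0.09 and -0.39 ± 0.09, adjusted p = 3.05e-05 and 0.00107). DNAJC7, which binds both HSP70 and HSP90, fell, at -0.22 ± 0.04 (adjusted p = 2.66e-05) with sh68 and -0.14 ± 0.04 (adjusted p = 0.00233) with sh72. Exons of DNAJC7 overlap those of CNP by 401 bases and those of NKIRAS2 by 484 bases, both on the opposite strand. DNAJC9, a histone chaperone, rose slightly, by 0.12 ± 0.04 (adjusted p = 0.0143) with sh68 and 0.15 ± 0.04 (adjusted p = 0.00212) with sh72, averaging 99.6 ± 1.00 CPM with sh68 and 102.2 ± 3.23 CPM with sh72, against 91.9 ± 1.00 CPM with shSCR. Without known strand, reads of DNAJC9 and of FAM149B1, which overlap by 949 bases, cannot be told apart. DNAJC21, a ribosome assembly factor, did not pass with either hairpin (-0.01 ± 0.04 and -0.03 ± 0.04, adjusted p = 0.820 and 0.513).

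DNAJC5, the cysteine string protein of vesicle membranes, had 172.2, 166.9 and 167.9 CPM with sh68 and 165.6, 156.7 and 140.3 CPM with sh72, against 184.4, 188.0 and 181.4 CPM with shSCR. All 6 libraries were below the controls, and the fall passed with sh72 (-0.26 ± 0.05, adjusted p = 4.45e-05). With sh68 it was -0.13 ± 0.05 (adjusted p = 0.0204), a call that ended without control replicate 1 (-0.12, 0.0782), control replicate 2 (-0.11, 0.102), sh68 replicate 2 (-0.11, 0.101) or sh68 replicate 3 (-0.11, 0.0872). Its difference of -0.13 ± 0.05 (adjusted p = 0.0171) ended without sh72 replicate 3 (-0.06, 0.250) or sh68 replicate 1 (-0.11, 0.0752). Among J-proteins of the mitochondrial inner membrane, DNAJC15 rose with sh72 (0.25 ± 0.05, adjusted p = 0.000268) and DNAJC19 was at 0.05 ± 0.05 (adjusted p = 0.480). With sh68 DNAJC15 was at -0.03 ± 0.05 (adjusted p = 0.587) and DNAJC19 at -0.17 ± 0.05 (adjusted p = 0.00918), a call that ended without control replicate 2 (-0.12, 0.0900). Both were higher with sh72 than with sh68, by 0.28 ± 0.05 and 0.22 ± 0.05 (adjusted p = 4.61e-05 and 0.00120).

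DNAJC5G, a relative of DNAJC5 known from the testis, had 5, 4 and 6 reads with sh68 and 23, 29 and 21 reads with sh72, against 0, 0 and 2 reads with shSCR. The ratio of summed levels was 6.88 with sh68 (95% exact interval for counting error, 1.60 to 62.0) and 36.0 with sh72 (9.61 to 302.7). These intervals leave out the spread between libraries and cannot serve as a test. DNAJC5G entered the test only through its 3 sh72 libraries, so its levels and ratios are given as a description, without p values. Its exons overlap those of SLC30A3 by 42 bases on the opposite strand, and SLC30A3 also rose, by 1.70 ± 0.31 (adjusted p = 6.13e-05) with sh68 and 2.24 ± 0.29 (adjusted p = 7.69e-07) with sh72. Its part in the DNAJC5G reads was not tested.

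Some class C genes lie outside the naming rule and were picked after their values were seen. DNAJC14 fell with sh68 (-0.31 ± 0.04, adjusted p = 7.83e-07) and rose with sh72 (0.18 ± 0.04, adjusted p = 0.000461), at 62.1 ± 0.29 CPM with sh68 and 87.5 ± 1.49 CPM with sh72, against 76.9 ± 1.72 CPM with shSCR. DNAJC14 shares 920 exon bases with ORMDL2 on the opposite strand. DNAJC5B did the reverse, at 78.0 ± 5.17 CPM with sh68 and 62.1 ± 4.87 CPM with sh72, against 71.4 ± 2.22 CPM with shSCR, with adjusted p values of 0.0488 and 0.00390. Its sh68 value (0.13) did not pass without control replicate 1 (0.12, adjusted p = 0.119), control replicate 3 (0.13, 0.0994), sh68 replicate 2 (0.09, 0.189) or sh68 replicate 3 (0.13, 0.0868). Members with opposite calls against shSCR were thus HSP90AB1, HSPA8 and DNAJC14 (lower with sh68, higher with sh72) and DNAJB5 and DNAJC5B (higher with sh68, lower with sh72), 5 of 60 (8.33%), beside 7.83% of all tested genes (3.50% the first way and 4.32% the second), with the sh68 calls of HSPA8 and DNAJC5B resting on single libraries as given above. The 13 other tested members outside the naming rule (DNAJB7, DNAJB12, DNAJC1, DNAJC2, DNAJC4, DNAJC6, DNAJC8, DNAJC11, DNAJC18, DNAJC27, DNAJC30, HSPA12A and HSPA12B) gave 1 rise and 2 falls with sh68 and 4 rises and 4 falls with sh72. Their log2 fold changes ran from -0.30 to 0.30 with sh68 and from -0.51 (DNAJC27) to 0.31 (DNAJC30) with sh72.

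BAG proteins release clients from HSP70. With sh68 1 of 6 rose and 4 fell, with sh72 2 rose and 1 fell, and 3 were higher and 1 lower with sh72 than with sh68. The 4 falls with sh68 became 2 without control replicate 1. BAG3, which links HSP70 to autophagy and is a known stress gene, had 3.10, 2.99 and 3.15 CPM with sh68 and 3.70, 3.16 and 3.15 CPM with sh72, against 2.29, 1.84 and 2.04 CPM with shSCR. Every LSD1 shRNA library was above the controls, with 0.58 ± 0.15 (adjusted p = 0.00163) with sh68 and 0.70 ± 0.14 (adjusted p = 0.000291) with sh72. BAG2, which inhibits the ubiquitin ligase STUB1, had 44.7, 43.0 and 44.6 CPM with sh68 and 73.1, 65.5 and 67.1 CPM with sh72, against 45.0, 40.5 and 42.9 CPM with shSCR. It rose with sh72 by 0.68 ± 0.05 (adjusted p = 1.16e-10), and sh68 overlapped the controls (0.04 ± 0.05, adjusted p = 0.525). BAG2 overlaps RAB23 by 2842 exon bases on the opposite strand, and RAB23 did not pass with either hairpin (0.08 and 0.05, adjusted p = 0.268 and 0.480).

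BAG1, which recruits HSP70 to the proteasome, had 92.8, 94.7 and 98.6 CPM with sh68 and 87.1, 83.5 and 81.9 CPM with sh72, against 111.2, 105.9 and 100.8 CPM with shSCR. It fell with sh72 (-0.33 ± 0.04, adjusted p = 9.43e-07), and its sh68 call (-0.15 ± 0.04, adjusted p = 0.00468) ended without control replicate 1 (-0.11, adjusted p = 0.0742). BAG4 fell with sh68 (-0.34 ± 0.07, adjusted p = 0.000135) and was at 0.08 ± 0.07 with sh72 (adjusted p = 0.301), a difference of 0.43 ± 0.07 (adjusted p = 7.18e-06). BAG5, an exchange factor for HSP70, was at -0.13 ± 0.04 (adjusted p = 0.00327) with sh68 and -0.06 ± 0.04 (adjusted p = 0.160) with sh72. BAG6, which guards hydrophobic chains before they reach the membrane, differed between the hairpins by 0.53 ± 0.15 (adjusted p = 0.00403). Its sh68 value of -0.37 ± 0.15 (adjusted p = 0.0475) missed the threshold when any 1 control library, sh68 replicate 1, sh68 replicate 3 or sh72 replicate 3 was left out (-0.25 to -0.40, adjusted p from 0.0540 to 0.226).

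A set of 20 members passed on the mean of both hairpins and the same way with each, with all 6 LSD1 shRNA libraries beyond the controls. Over all tested genes, 11.9% met the same rule higher and 12.2% lower (24.1% in either direction), beside 16.7% and 16.7% of the members (33.3%). The 10 higher were BAG3, DNAJA4, DNAJB1, DNAJB4, DNAJB13, DNAJC5G, DNAJC9, DNAJC12, HSPA4L and HSPB1, of which DNAJC5G was tested only through its sh72 libraries, and the 10 lower were BAG1, DNAJA1, DNAJB14, DNAJC5, DNAJC7, DNAJC13, DNAJC16, DNAJC17, DNAJC24 and DNAJC25. Over all tested members, 12 had all 6 libraries above the controls and 13 had all below, beside 14.6% and 15.3% of all tested genes. Of the 20, 14 kept all 3 calls whichever library was left out, 9 of them higher and 5 lower. The others were DNAJC5G, whose sh68 call ended without control replicate 1 or 2, BAG1 and DNAJC5, described above, and DNAJC13, DNAJC17 and DNAJC24. DNAJC13, an endosomal J-protein, had a sh72 value of -0.10 ± 0.04 (adjusted p = 0.0269), whose call ended without control replicate 1 or 3, sh68 replicate 2 or 3, or sh72 replicate 2 (-0.07 to -0.09, adjusted p from 0.0583 to 0.191), and under either other scaling, either other filter, DESeq2 or only the groups compared (-0.06 to -0.09, adjusted p from 0.0503 to 0.173). DNAJC17 had a sh72 value of -0.22 ± 0.08 (adjusted p = 0.0207), whose call ended without control replicate 1 (-0.20, 0.0733), control replicate 2 (-0.16, 0.136) or sh72 replicate 3 (-0.15, 0.151), and with library size alone (-0.18, 0.0547) or DESeq2 (-0.21, 0.0542). Exons of DNAJC17 and GCHFR overlap by 1151 bases on opposite strands, and without known strand reads there cannot be told apart. DNAJC24 was at -0.15 ± 0.06 with sh68 and -0.17 ± 0.06 with sh72 (adjusted p = 0.0473 and 0.0276). Its sh68 call ended without any 1 library other than control replicate 1 and sh72 replicate 1 (-0.10 to -0.17, adjusted p from 0.0518 to 0.230), and its sh72 call without control replicate 2 (-0.12, 0.170), control replicate 3 (-0.17, 0.0651) or sh72 replicate 2 (-0.09, 0.264). The sh68 call of DNAJC24 also ended under either other scaling, either other filter, DESeq2 or limma-voom (-0.12 to -0.15, adjusted p from 0.0523 to 0.106), and its sh72 call with library size alone, DESeq2 or only the groups compared (-0.13 to -0.16, adjusted p from 0.0562 to 0.0854).

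Other genes of protein folding, from lists that are not members, gave similar splits for some groups. Of all tested genes, 27.4% rose and 28.1% fell with sh68, and 24.7% rose and 26.3% fell with sh72. Between the hairpins, 27.2% were higher and 29.0% lower with sh72 than with sh68. These shares stand beside every list here and below. TRiC, the chaperonin of the cytosol that folds actin and tubulin, had all 8 genes tested, with 0 rising and 5 falling with sh68, 7 rising and 0 falling with sh72, and all 8 higher with sh72 than with sh68 (median difference 0.30, beside -0.01 for all tested genes). The 5 falls with sh68 became 3 without control replicate 1 or sh68 replicate 1, while the 7 rises with sh72 and the 8 differences were the same in number whichever library was left out. CCT3 averaged 428.7 CPM with sh68 and 550.5 CPM with sh72, against 457.3 CPM with shSCR, with -0.09 ± 0.04 (adjusted p = 0.0520) with sh68 and 0.27 ± 0.04 (adjusted p = 5.28e-06) with sh72. CCT8 rose with sh72 by 0.28 ± 0.04 (adjusted p = 4.49e-07), and CCT5 fell with sh68, at -0.21 ± 0.04 (adjusted p = 6.16e-05). Of 22 cochaperones of HSP90 and HSP70, 3 rose and 10 fell with sh68, 10 rose and 1 fell with sh72, and 16 were higher and 2 lower with sh72 than with sh68 (median 0.26). The 1 fall with sh72 became 4 without sh72 replicate 1, and the 2 lower became 1 without sh72 replicate 3. STIP1, which bridges HSP70 and HSP90, fell with sh68 (-0.44 ± 0.04, adjusted p = 4.68e-09) and was at -0.06 ± 0.04 with sh72 (adjusted p = 0.271), which passed without sh72 replicate 1 (-0.10, adjusted p = 0.0265). FKBP4, an HSP90-bound immunophilin, fell with both (-0.51 ± 0.05 and -0.18 ± 0.05, adjusted p = 2.37e-09 and 0.00177), while FKBP5, its antagonist in steroid receptor complexes, rose with both (0.54 ± 0.03 and 0.22 ± 0.03, adjusted p = 3.54e-12 and 9.09e-06). ST13, an HSP70 cochaperone, rose with both (0.17 ± 0.04 and 0.36 ± 0.04, adjusted p = 0.00260 and 2.71e-07).

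Of 13 tested genes for folding and proteolysis in mitochondria, 2 rose and 6 fell with sh68, 4 rose and 3 fell with sh72, and 6 were higher and 2 lower with sh72 than with sh68 (median 0.12). TRAP1, the mitochondrial HSP90, averaged 129.4 CPM with sh68 and 187.9 CPM with sh72, against 149.8 CPM with shSCR, and like HSP90AB1 fell with sh68 (-0.21 ± 0.04, adjusted p = 0.000291) and rose with sh72 (0.33 ± 0.04, adjusted p = 1.09e-06). CLPB, a disaggregase, rose by 0.56 ± 0.06 with sh72 (adjusted p = 3.03e-08). GRPEL1, a nucleotide exchange factor of HSPA9, fell, at -0.43 ± 0.06 with sh68 and -0.31 ± 0.06 with sh72 (adjusted p = 4.38e-06 and 0.000253). Its relative GRPEL2 did not pass with sh68 (-0.03 ± 0.05, adjusted p = 0.640) or sh72 (-0.11 ± 0.05, adjusted p = 0.0861). Of 8 tested prefoldin genes, which hand nascent chains to TRiC, 1 rose and 3 fell with sh68, 2 rose and 2 fell with sh72, and 4 were higher and 1 lower with sh72 than with sh68. The small counts of these lists turned on single libraries: the 3 prefoldin falls with sh68 became 1 without control replicate 2 or sh68 replicate 1, the 2 falls with sh72 became 1 without any 1 library other than sh72 replicate 2, and the 1 rise became 0 without control replicate 1 or sh68 replicate 2. In mitochondria the 2 rises with sh68 became 1 without control replicate 2 or 3 or sh68 replicate 2 or 3, and the 2 lower with sh72 became 1 without sh68 replicate 1 or sh72 replicate 3. The 5 endoplasmic reticulum genes left out of the members showed another picture: 4 rose and 1 fell with sh68, 2 rose and 0 fell with sh72, and 2 were higher and 3 lower with sh72 than with sh68 (median -0.11), the 2 higher becoming 1 without control replicate 2, sh72 replicate 1 or 3, or any 1 sh68 library. HSPA5 (BiP), the HSP70 of that compartment, rose with both (0.13 ± 0.04 and 0.24 ± 0.04, adjusted p = 0.0112 and 7.37e-05), the sh68 call ending without control replicate 3 (0.10, adjusted p = 0.0690), and DNAJB9 rose with sh68 (0.55 ± 0.05, adjusted p = 7.65e-09).

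Genes for the transcription factors that act on heat shock elements were also read. HSF1 averaged 115.1 CPM with sh68 and 138.5 CPM with sh72, against 122.4 CPM with shSCR. It did not pass with sh68 (-0.09 ± 0.05, adjusted p = 0.135), rose with sh72 (0.18 ± 0.05, adjusted p = 0.00447) and differed between the hairpins by 0.27 ± 0.05 (adjusted p = 7.05e-05). HSF2 rose with both, by 0.27 ± 0.05 (adjusted p = 0.000104) with sh68 and 0.15 ± 0.05 (adjusted p = 0.0213) with sh72, the second call ending without control replicate 1 (0.12, 0.0949) or sh72 replicate 2 (0.14, 0.0591). HSF4, at 3.22 CPM with sh68 and 1.70 CPM with sh72, against 1.42 CPM with shSCR, rose with sh68 (1.17 ± 0.18, adjusted p = 7.92e-06). HSBP1, which binds HSF trimers, rose with sh72 to 291.0 CPM, against 186.3 CPM with shSCR (0.64 ± 0.07, adjusted p = 1.50e-08), and had 185.4 CPM with sh68 (-0.01 ± 0.07, adjusted p = 0.934).

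**Figure D5:**
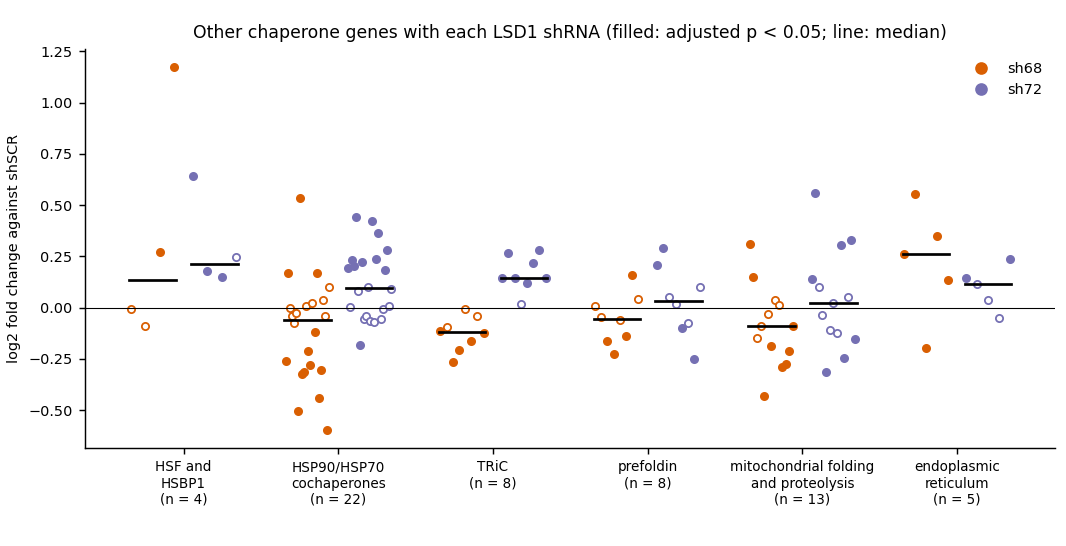
Log2 fold change against shSCR with sh68 (left in each list) and sh72 (right) for the tested genes of 6 chaperone lists that are not members. Filled points passed the test and lines mark medians. In TRiC 5 of 8 genes fell with sh68 and 7 of 8 rose with sh72, while the endoplasmic reticulum genes have 4 of 5 rising with sh68.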

How the data were processed

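The authors deposited raw counts, each the whole number of reads of a gene in a library, for 9 libraries of polyadenylated OCI-Ly1 RNA. Per the submitters' processing notes, hg38 was the genome, CASAVA 1.8.2 and STAR 2.5.2 were used, and featureCounts 1.5.2 is also listed. For these tools, the sources used here give no settings, strand handling or gene models. All 9 columns were used. Depth, 29506767 to 35270849 reads a library, limits precision for members below about 1 CPM.

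The members, lists and naming rule were chosen with earlier results of these data known. The naming rule took 39 genes by name, the members called the same way with both hairpins, and the 8 called members with the largest difference between hairpins. In R 4.3.3, edgeR 4.0.16 fitted 1 quasi-likelihood model with a term per hairpin to all 9 libraries, after filterByExpr (15725 genes kept) and TMM scaling, with Benjamini-Hochberg adjustment over all genes tested. The common biological coefficient of variation was 0.0394. The fit was tested on simulated data. CPM are TMM-scaled, and CPM per kb used GENCODE 29 exon lengths, with the exons of all transcripts of a gene merged. Start regions came from RefSeq on GRCh38.p14. Alternatives were other scalings and filters, DESeq2 1.42.0, limma-voom (limma 3.58.1), fewer libraries and a replicate block.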

Additional observations from a re-analysis of the deposited data

Results flagged for a closer look

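For 30 named members the effect of the LSD1 shRNAs differed between the hairpins by the direct test of sh72 minus sh68. The test was edgeR's, adjusted over all genes tested. Part of the naming rule used this same difference, so the count of 30 cannot be set against the share of all genes. Over all 60 tested members, named or not, 40 passed (66.7%), beside 56.2% of all tested genes. All values here are log2 differences, sh72 minus sh68. Among HSP70, HSP90 and chaperonin genes, HSP90AB1 differed by 0.60, HSPE1 by 0.50, HSPA8 by 0.35, HSP90AA1 by 0.27, HSPH1 by 0.26, HSPA4 by 0.12 and HSPA14 by 0.10, while HSPA13 was at -0.41 and HSPD1 at -0.26. The small heat shock protein HSPB1 was at 0.31, HSPB11 at -0.22 and HSPB7, which entered the test through sh68, at -1.32.

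Among class A and B J-proteins, DNAJB2 was at 0.60, DNAJB6 at 0.57, DNAJB4 at 0.39, DNAJB1 at 0.37, DNAJA2 at 0.36 and DNAJA1 at 0.16, while DNAJB13 was at -1.03 and DNAJB5 at -0.93. In class C, DNAJC5G, which entered the test only through sh72, was at 2.35, DNAJC12 at 0.46, DNAJC16 at 0.44, DNAJC15 at 0.28, DNAJC19 at 0.22 and DNAJC5 at -0.13. Of the BAG genes, BAG2 was at 0.64, BAG6 at 0.53, BAG4 at 0.43 and BAG1 at -0.18. The differences of DNAJC5 and HSPA14 lost their calls without single libraries. Without sh68 replicate 1 they were -0.11 and 0.08 (adjusted p = 0.0752 and 0.121). DNAJC5 was at -0.06 (0.250) without sh72 replicate 3, and HSPA14 at 0.09 (0.0991) without sh72 replicate 2. The HSPB7 difference, given as a description only, was smaller in size at -1.08 without sh68 replicate 1 and -0.88 without sh72 replicate 1, and lost its call in both.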

How the results depend on the processing

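With all 6 LSD1 shRNA libraries fitted as 1 group, which adds the spread between the hairpins to the error, 11 members were higher and 7 lower on the comparison with shSCR, in place of 20 and 21. The other counts over all members stayed within 1.5 times their value, and no named member changed direction while called. Counts of single roles and lists are smaller and moved more. Without single libraries, larger moves are given beside the counts and smaller ones are not. For example, the 6 mitochondrial falls with sh68 ran from 4 to 8, and the 3 cochaperone rises with sh68 from 2 to 4. A count given without such values may therefore still have moved. Under DESeq2 or library size alone the 11 class C falls with sh72 became 7, and under DESeq2 the 2 HSP70 and HSP110 falls with sh72 became 1. With a minimum of 1 CPM in 3 libraries the 4 falls of that role with sh68 became 2. The 1 HSPB gene higher with sh72 became 2, by the addition of HSPB11, in every alternative of scaling, filter, block or libraries fitted and under DESeq2. Beside the members named with such values in the report, the sh68 calls of BAG6, DNAJC5, HSPA8 and HSPA9 ended with library size alone, the 1 CPM minimum or both, that of BAG6 also under DESeq2 and limma-voom. Leaving out each library in turn gave 16 to 21 higher and 16 to 22 lower on the mean, 13 to 16 and 19 to 26 with sh68, 22 to 25 and 14 to 19 with sh72, and 25 to 29 and 9 to 12 for sh72 minus sh68. Same-numbered libraries paired weakly at most, with correlations of deviations from -0.0466 to 0.145 over 9 pairs, 1 above 0.1. Differently numbered libraries of 2 groups gave -0.158 to 0.081. With a replicate block 20 members were higher and 24 lower on the mean, 16 and 26 with sh68, 25 and 18 with sh72, and 29 and 12 for sh72 minus sh68. Under DESeq2 the sh72 calls were 25 higher and 13 lower. The median of all tested genes moved by less than 0.1 between scalings. On the mean, the calls of HSPA9, BAG5, DNAJC15, DNAJC24, HSPB7, HSP90AB1, HSPA13, HSPE1 and HSPH1 were lost without at least 1 library, so their mean values are not given. Depth limits members with few reads, such as HSPB7, DNAJC5G and HSPA1B.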
